A study of Mus musculus with 18 samples.

Results

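The amino acid transporter genes of the Slc1, Slc3, Slc6, Slc7, Slc36, Slc38 and Slc43 families were described in thick ascending limbs (TAL) of the mouse kidney. Members were chosen by symbol, as every row named Slc1a, Slc3a, Slc6a, Slc7a, Slc36a, Slc38a or Slc43a followed by a number, without the organic osmolyte and glutamine carriers *Slc6a6*, *Slc6a12* and *Slc38a2* and without 4 opposite-strand transcripts. This gave 60 members of 55401 rows. RNA-seq was made from microdissected tubules of the cortical TAL (CTAL) and of the medullary TAL (MTAL, dissected from the outer medulla at its inner stripe) of adult male mice, with 1 pool of tubules per mouse. Conditional knock-out (cKO) mice carried *Cldn10* fl/fl alleles, which encode the tight junction protein claudin-10, and a Cre recombinase driven by the Ksp-cadherin promoter of the distal nephron. Control littermates, called WT, carried the same floxed alleles without Cre, and the labels give C57BL/6J as the strain of all mice. There were 5 pools of WT CTAL, 5 of cKO CTAL, 5 of WT MTAL and 3 of cKO MTAL. According to the study, the outer medulla of cKO mice held calcium deposits that made dissection of the cKO MTAL difficult.

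Epithelial cells carry amino acid transporters on both their apical and their basolateral membrane. Sodium- and proton-coupled carriers of the Slc1, Slc6, Slc36 and Slc38 families concentrate amino acids in the cell, whereas exchangers of the Slc7 family trade one amino acid for another. Most Slc7 exchangers are light chains that reach the plasma membrane only when bound to a heavy chain, *Slc3a2* (4F2hc, CD98) or *Slc3a1* (rBAT). In the kidney these families are best known from the proximal tubule, which reabsorbs nearly all filtered amino acids. The TAL, in contrast, is known for the reabsorption of NaCl.

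Levels are given as CPM (counts scaled to a common library size) after TMM normalization when pools are compared. When genes are compared or summed, levels are given as TPM (the authors' transcript levels, corrected for length). Total counts ranged from 10824299 to 62339939 per pool. *Cldn10* lay between 151 and 295 CPM in the 8 cKO pools and between 384 and 810 CPM in the 10 WT pools, so that the transcript was lowered but not absent in cKO pools. *Slc12a1*, the NaCl carrier that defines the TAL, lay between 11424 and 16145 CPM in all pools. The title of WT CTAL replicate 1 reads knock-out, whereas its pool name reads WT; its *Cldn10* level of 446 CPM lay among those of WT CTAL, and it was used as WT. In spite of the stated male sex, *Xist*, the RNA of the inactive X chromosome, reached 6.5 to 8.77 CPM in 7 pools and at most 0.738 CPM in the other 11, while the Y-linked *Ddx3y* lay at 23.6 CPM or more in every pool. These 7 pools were WT MTAL replicates 11, 15, 17 and 19, WT CTAL replicates 3 and 22, and cKO CTAL replicate 2, so that 1 of the WT MTAL pools and all 3 of the cKO MTAL pools lacked *Xist*. In pools of tubules, fewer cells of a type and less RNA per cell cannot be told apart.

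A total of 28 members passed the filter on low counts (at least 3 CPM in a set number of pools) for at least 1 test, and 25 of them in all 4 comparisons of groups. The 7 most abundant members held 81.1% of the summed TPM of the 60. *Slc38a10*, a poorly known member of the sodium-coupled neutral carriers, was the most abundant, with 127 TPM in WT CTAL, 145 in cKO CTAL, 126 in WT MTAL and 151 in cKO MTAL. It was followed by *Slc43a2* (LAT4, facilitated diffusion of branched-chain and aromatic amino acids) with a mean of 98.8 TPM over the 18 pools, the heavy chain *Slc3a2* with 66.6 TPM, and *Slc1a5* (ASCT2, an exchanger of neutral amino acids such as glutamine) with 65.7 TPM. Next came *Slc6a8*, the creatine transporter, with 58.8 TPM, *Slc6a17*, a neutral amino acid carrier first described in synaptic vesicles, with 40.1 TPM, and the light chain *Slc7a8* (LAT2) with 27.0 TPM. *Slc1a1* (EAAT3, the glutamate, aspartate and cystine carrier of epithelia) averaged 13.3 TPM, *Slc7a6* (y+LAT2) 10.5 TPM and *Slc7a7* (y+LAT1) 8.92 TPM.

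The other 32 members did not pass this filter for any test, with mean levels of 1.04 TPM at most. Among them were *Slc7a9*, the light chain that pairs with *Slc3a1* in the proximal tubule, with 0.874 TPM, and *Slc7a11*, the cystine exchanger, with 0.111 TPM. The near-identical copies *Slc6a20a* and *Slc6a20b* had 0.103 and 0.80 TPM, and how reads were shared between them is uncertain. *Slc1a7* and *Slc6a21* had no count in any pool.

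**Figure D1:**
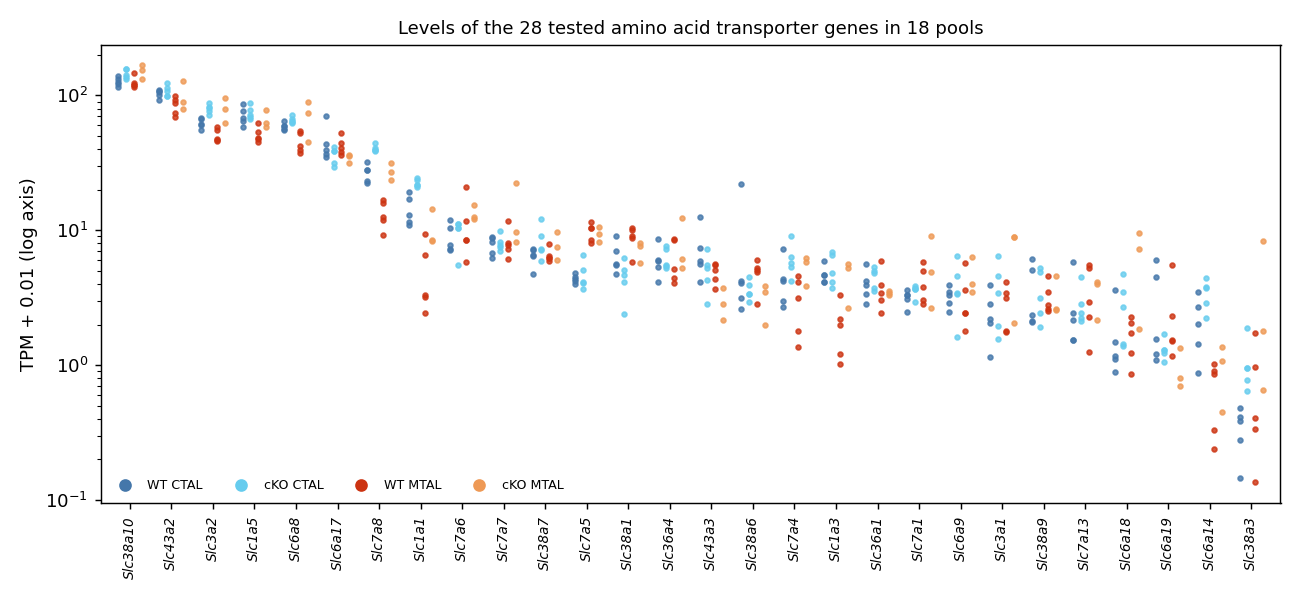
Level of each of the 28 tested members in the 18 pools, in TPM plus 0.01 on a log axis, with members ordered by their mean; each point is a pool and colours give the 4 groups. *Slc38a10* stood highest, *Slc7a8* spread apart by group with the 5 WT MTAL pools at the bottom, and the members to the right of *Slc1a1* had means of 10.5 TPM or less.

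Genotypes were compared within each segment, beginning with the MTAL. Compared to WT MTAL replicates, *Slc7a8*, *Slc1a1* and *Slc6a18* were more expressed in cKO MTAL replicates, and no member passed the test as less expressed. These were 3 of 26 members tested, where 7.01% of all 12060 genes tested differed (4.44% higher and 2.57% lower). The fold change reached 2 for *Slc1a1* and *Slc6a18*, against 3.74% of all genes, and the median log2 fold change was 0.08 over the 26 members and 0.00 over all genes. The CPM of both groups did not overlap for 5 members (*Slc7a8*, *Slc1a1*, *Slc3a2*, *Slc6a17* and *Slc38a7*), against 14.4% of all genes.

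*Slc7a8* (chr14:54722209-54781946, minus strand, GRCm38) encodes a light chain that exchanges neutral amino acids across the basolateral membrane of renal epithelia. Its level was 33.1, 38.7, 44.0, 53.6 and 58.3 CPM in the WT MTAL pools and 74.6, 80.8 and 95.6 CPM in the cKO MTAL pools. Every cKO pool thus lay above every WT pool. The difference was 0.89 on the log2 scale (SE 0.17, 95% interval 0.52 to 1.26), with an adjusted p of 0.00654, and *Slc7a8* passed the test whichever single pool was left out.

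*Slc1a1* (chr19:28835049-28913960, plus strand, GRCm38) had 6.82, 8.42, 11, 13.6 and 17.3 CPM in the WT MTAL pools and 21.4, 21.8 and 36.9 CPM in the cKO MTAL pools. The groups did not overlap, and 1 cKO pool, replicate 18, stood above the other two. On the log2 scale the difference was 1.24 (SE 0.29, 95% interval 0.61 to 1.86), with an adjusted p of 0.0188. Without cKO MTAL replicate 18 it was 0.93, with an adjusted p of 0.0952.

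Both differences also passed the test without the pools that hold *Xist*. In a fit of the 11 pools lacking *Xist*, where WT MTAL replicate 13 alone stands for its group and is assumed to vary like the others, the log2 fold change was 1.12 for *Slc7a8* (adjusted p = 0.0312) and 1.67 for *Slc1a1* (adjusted p = 0.0432). With *Xist* as a term in the fit of all 18 pools it was 0.94 for *Slc7a8* (adjusted p = 0.00281) and 1.27 for *Slc1a1* (adjusted p = 0.0103). *Slc6a18*, described next, was at 1.42 in the 11 pools (adjusted p = 0.341) and at 1.88 with the *Xist* term (adjusted p = 0.0274).

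*Slc6a18* encodes a neutral amino acid carrier of the brush border of the proximal tubule. It had 2.85, 4.57, 5.08, 5.43 and 6.11 CPM in the WT MTAL pools, and 4.63, 17.3 and 18.4 CPM in the cKO MTAL pools. Replicate 16 of cKO MTAL lay within the WT range, and only replicates 20 and 18 lay above it. It rose by 1.49 on the log2 scale (SE 0.40), with an adjusted p of 0.0361, which was lost when any 1 of the 8 pools other than cKO MTAL replicate 16 was left out (adjusted p from 0.0548 to 0.136).

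Markers of the proximal tubule moved with *Slc6a18*. Of 16 such markers 9 were tested, and 5 rose in cKO MTAL against WT MTAL. Their summed level lay between 101 and 202 CPM in the WT MTAL pools, and was 193 CPM in cKO MTAL replicate 16, 404 in replicate 20 and 616 in replicate 18. *Slc34a1*, the phosphate carrier of the proximal tubule, had 1.5 to 6.54 CPM in WT MTAL and 5.88, 31.6 and 22 CPM in cKO MTAL replicates 16, 20 and 18. Among the lowest of the list, *Slc5a12*, *Slc2a2*, *Slc5a2* and *Slc22a8* had at most 0.221, 0.889, 1.04 and 1.14 CPM in any MTAL pool. *Slc5a2* was higher in the 3 cKO MTAL pools (0.221, 1.04 and 0.474 CPM) than in the WT MTAL pools (at most 0.173 CPM). *Slc22a8* had 0.368, 1.14 and 0 CPM in cKO MTAL replicates 16, 18 and 20 and at most 0.321 CPM in WT MTAL. The heavy chain *Slc3a1*, whose product is also found in the proximal tubule, followed the same order, with 3.38, 13.6 and 13.7 CPM in cKO MTAL replicates 16, 20 and 18 against 2.84 to 7.51 CPM in WT MTAL, and did not pass the test (log2 fold change 1.01, SE 0.45, adjusted p = 0.187). In the CTAL, the highest levels of *Slc6a18* and *Slc3a1* (13.6 and 10.9 CPM) belonged to cKO CTAL replicate 2, the pool with the most proximal tubule markers of that segment (528 CPM).

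When cKO MTAL replicates 18 and 20 and cKO CTAL replicate 2, the 3 pools with the most such markers, were left out, cKO MTAL was represented by replicate 16 alone, and the spread behind the p-values came from the WT pools, like which replicate 16 was assumed to vary. The log2 fold change was then 0.95 for *Slc1a1* (adjusted p = 0.338) and 0.74 for *Slc7a8* (adjusted p = 0.18). For *Slc6a18*, which was high in the pools left out, it was -0.03, a value set by that choice of pools. Replicate 16, a single pool with proximal tubule markers in the WT range, had 74.6 CPM of *Slc7a8* and 21.8 CPM of *Slc1a1*, above every WT MTAL pool (at most 58.3 and 17.3 CPM). The part of proximal tubule RNA in the differences of *Slc7a8* and *Slc1a1* was not tested.

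**Figure D2:**
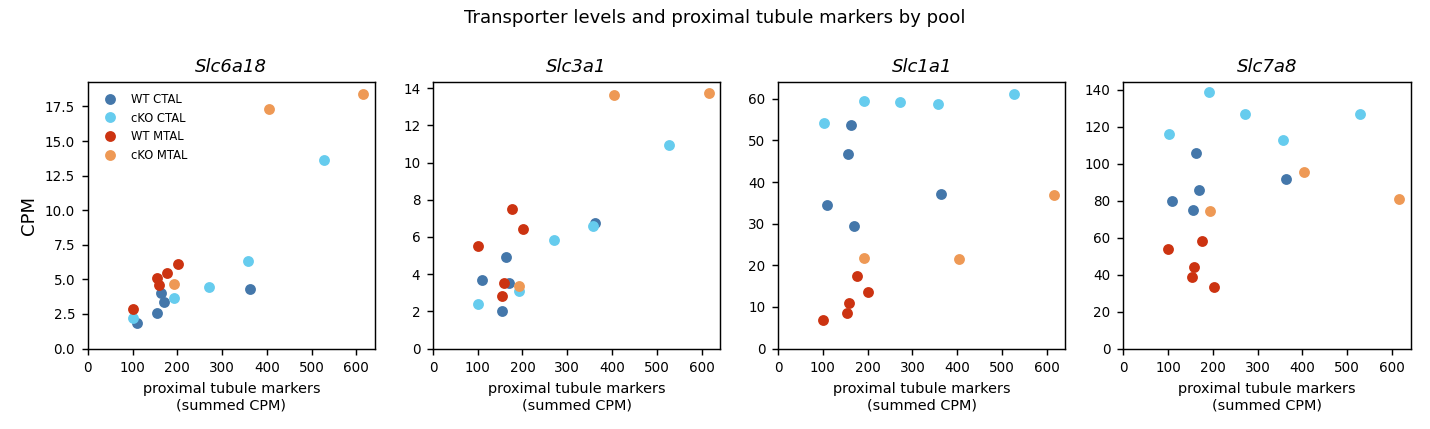
Level of *Slc6a18*, *Slc3a1*, *Slc1a1* and *Slc7a8* (CPM) in each of the 18 pools against the summed level of 16 proximal tubule markers (CPM); colours give the group. The 3 pools with the most *Slc6a18* and *Slc3a1* (cKO MTAL replicates 18 and 20 and cKO CTAL replicate 2) were also those with the most proximal tubule markers, from 404 to 616 CPM, whereas *Slc1a1* and *Slc7a8* were higher in cKO than in WT pools of either segment.

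Other cell markers also differed between both MTAL groups. Of 10 TAL markers 4 were higher and 2 lower in cKO MTAL, with sums of 69256 to 81697 CPM against 52265 to 63897 CPM in WT MTAL. Of the 6 markers of tubular injury 3 were tested and 2 were higher, and their summed level was 2011 to 8132 CPM in cKO MTAL and 1032 to 1260 CPM in WT MTAL, whereas 5 of 8 endothelial markers were lower, with sums of 168 to 281 CPM in cKO MTAL and 301 to 468 CPM in WT MTAL. Of 6 tested intercalated cell markers 2 were higher in cKO MTAL, with sums of 47.6 to 282 CPM against 22 to 112 CPM in WT MTAL. None of 6 tested principal cell markers was called, and they summed to 1004 CPM in cKO MTAL replicate 20 and to at most 331 CPM in the other MTAL pools. Of 4 thin limb markers 1 was higher and 1 lower in cKO MTAL, and of 6 tested fibroblast and pericyte markers 1 was higher. The part of these cells in the results for *Slc7a8*, *Slc1a1* and *Slc6a18* was not tested.

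The heavy chain *Slc3a2* and the creatine transporter *Slc6a8* came close to the threshold without passing it. *Slc3a2* had 67.5, 74.0, 74.6, 74.8 and 85.3 CPM in WT MTAL and 86.2, 97.6 and 121 CPM in cKO MTAL, without overlap (log2 fold change 0.44, SE 0.13, adjusted p = 0.0554). *Slc6a8* had 102 to 134 CPM in WT MTAL and 115, 182 and 191 CPM in cKO MTAL (log2 fold change 0.50, SE 0.15, adjusted p = 0.059). Without cKO MTAL replicate 16, both passed the test, with adjusted p of 0.0346 for *Slc3a2* and 0.00602 for *Slc6a8*. The number of members past it then rose from 3 to 6. That fit kept replicates 18 and 20, the MTAL pools with the most proximal tubule markers (616 and 404 CPM), whose part was not tested. Over the alternatives other than single pools left out, the log2 fold change ranged from 0.22 to 0.62 for *Slc3a2* and from 0.02 to 0.58 for *Slc6a8*. Without replicate 18 the number of members past the test was 1, *Slc7a8*. *Slc6a17* was the abundant member with lower values in cKO MTAL, with 139 to 158 CPM against 169.8 to 232 CPM in WT MTAL (log2 fold change -0.35, SE 0.12, adjusted p = 0.0943). It was called lower in the fit of all 18 pools (-0.36, adjusted p = 0.0191), with the *Xist* term (-0.40, adjusted p = 0.0399) and in the 11 pools lacking *Xist* (-0.62, adjusted p = 0.0458).

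For *Slc38a10*, *Slc43a2* and *Slc1a5*, 3 of the 4 most abundant members, the interval of the difference was narrow. The log2 fold change between cKO and WT MTAL was 0.05 for *Slc38a10* (95% interval -0.17 to 0.27), 0.09 for *Slc43a2* (-0.16 to 0.34) and 0.07 for *Slc1a5* (-0.20 to 0.34). *Slc7a7*, the basolateral exchanger of cationic for neutral amino acids, had 35.3 CPM in cKO MTAL replicate 16 and 12.1 and 14.3 CPM in replicates 18 and 20, against 10.4 to 14.2 CPM in WT MTAL. A single pool thus carried its log2 fold change of 0.72 (adjusted p = 0.169), which was 0.08 without that pool.

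In the CTAL, the same deletion went with 1 difference among 26 members tested: *Slc7a8* was higher in cKO CTAL. Of all 11702 genes tested 1.22% differed, 0.658% being higher and 0.564% lower; no called member had a fold change of 2, against 0.470% of all genes. The median log2 fold change was 0.04 over the members and 0.00 over all genes. *Slc7a8* had 75.2, 80.0, 85.9, 91.8 and 106 CPM in WT CTAL and 113, 116, 127, 127 and 139 CPM in cKO CTAL, without overlap. The difference was 0.49 on the log2 scale (SE 0.09, 95% interval 0.29 to 0.69), with an adjusted p of 0.0171. The call was lost without cKO CTAL replicate 21 (0.45, adjusted p = 0.0515) or without WT CTAL replicate 10 (0.48, adjusted p = 0.0568). It was also lost in the fit of all 18 pools without *Xist* as a term (0.50, adjusted p = 0.0762) and with it (0.51, adjusted p = 0.0892), and in the 11 pools lacking *Xist* (0.46, adjusted p = 0.429). Markers of tubular injury, of which 0 of 3 tested were called, summed to 1685 to 4443 CPM in cKO CTAL and 1369 to 1625 CPM in WT CTAL, 1 intercalated cell marker was higher and 1 endothelial marker lower in cKO CTAL, and their part was not tested.

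*Slc1a1* was the other member whose groups did not overlap in the CTAL, where 3.09% of all genes did not overlap. It had 29.3, 34.5, 37.1, 46.8 and 53.7 CPM in WT CTAL and 54.1, 58.7, 59.3, 59.4 and 61.2 CPM in cKO CTAL, and the cKO values were the closer to each other. Its log2 fold change was 0.53 (SE 0.13, 95% interval 0.24 to 0.81), with an adjusted p of 0.078. The highest WT value belonged to replicate 1, the pool with the contradictory title, and without it the log2 fold change was 0.65, with an adjusted p of 0.0135.

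None of the other members passed the test in the CTAL. *Slc7a5* (LAT1, log2 fold change -0.15, 95% interval -0.44 to 0.14) and *Slc1a5* (-0.07, 95% interval -0.27 to 0.13) had intervals that hold 0, and so did *Slc6a8* (0.06, 95% interval -0.13 to 0.25). *Slc6a17* had 140.05 to 168 CPM in cKO CTAL and 164 to 192 CPM in WT CTAL (log2 fold change -0.24, SE 0.07, adjusted p = 0.154).

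Since *Slc7a8* and *Slc1a1* were the members whose genotypes did not overlap in either segment, the bases before their starts are shown, as given by RefSeq for GRCm38.p6. Promoters were listed there for 11 of the 15 members described by name. Each window of 250 bases before a start was searched on both strands for the GC box (GGGCGG), the C/EBP-ATF response element of the amino acid response (TGATGNAA), the HNF1 core (GTTAAT) and the nuclear receptor core (AGGTCA). The printed part ends where the GENCODE annotation places the start of the gene, and capitals mark a match to the GC box on either strand, which was the only motif found in either window.
*Slc7a8*, chr14:54781947-54782136, minus strand: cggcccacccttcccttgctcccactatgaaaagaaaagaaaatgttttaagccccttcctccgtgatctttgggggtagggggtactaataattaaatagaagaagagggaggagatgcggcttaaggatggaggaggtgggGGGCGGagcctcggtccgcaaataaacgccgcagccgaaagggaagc
*Slc1a1*, chr19:28834885-28835048, plus strand: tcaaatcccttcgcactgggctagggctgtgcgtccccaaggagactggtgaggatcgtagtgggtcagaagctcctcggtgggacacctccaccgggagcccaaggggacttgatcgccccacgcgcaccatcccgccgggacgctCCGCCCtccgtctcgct
The match began 107 bases before the RefSeq start in *Slc7a8* and 103 bases before it in *Slc1a1*. Of all 32851 windows of this length, 32.7% held a GC box, 3.45% the C/EBP-ATF element, 6.43% the HNF1 core and 14.0% the nuclear receptor core, so that the motif shared by *Slc7a8* and *Slc1a1* is a common one.

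The segments were then compared within WT mice. Compared to WT CTAL replicates, WT MTAL replicates expressed more *Slc7a5* and less *Slc1a1*, *Slc7a8*, *Slc6a8*, *Slc43a2*, *Slc1a3* and *Slc1a5*. These were 7 of 26 members (1 higher and 6 lower), where 6.87% of 11650 genes differed (2.76% higher and 4.10% lower). Past a fold change of 2 were *Slc7a5*, *Slc1a1* and *Slc1a3*, against 2.32% of all genes, and 6 of the 7 did not overlap, against 7.37% of all genes. The median log2 fold change was -0.03 over the members and 0.02 over all genes.

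*Slc7a5* (chr8:121881150-121907694, minus strand, GRCm38), the light chain of the large neutral amino acid exchanger LAT1, had 11.8, 11.9, 12.5, 12.7 and 12.8 CPM in WT CTAL and 24.9, 25.5, 28.2, 30.5 and 34.9 CPM in WT MTAL. Each group was narrow, and every MTAL pool lay far above every CTAL pool. It rose by 1.22 on the log2 scale (SE 0.13, 95% interval 0.94 to 1.5), with an adjusted p of 1.89e-05.

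The glutamate carriers and LAT2 went the other way. *Slc1a1* fell by 1.83 on the log2 scale from WT CTAL to WT MTAL (SE 0.23, adjusted p = 8e-05), and its highest WT MTAL pool (17.3 CPM) lay below its lowest WT CTAL pool (29.3 CPM). *Slc7a8* fell by 0.95 (SE 0.14, adjusted p = 0.000416), from at least 75.2 CPM in every WT CTAL pool to at most 58.3 CPM in every WT MTAL pool. *Slc1a3* (GLAST, a second glutamate carrier) had 12.4, 12.5, 12.5, 13 and 17.9 CPM in WT CTAL and 3.21, 3.56, 6.58, 6.82 and 10.3 CPM in WT MTAL. Both groups were apart, and *Slc1a3* fell by 1.16 (SE 0.28, adjusted p = 0.0186), a call that was lost without WT CTAL replicate 1 (-1.04, adjusted p = 0.0657).

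Smaller differences were found in 3 abundant members. *Slc6a8* had 138 to 169 CPM in WT CTAL and 102 to 134 CPM in WT MTAL (log2 fold change -0.40, SE 0.09, adjusted p = 0.009), *Slc43a2* 407 to 483 and 315 to 378 CPM (-0.36, SE 0.08, adjusted p = 0.0123), and *Slc1a5* 94.4 to 132 and 73.2 to 100.2 CPM (-0.39, SE 0.11, adjusted p = 0.0444). The groups overlapped for *Slc1a5*, and its call was lost without any 1 of WT CTAL replicates 1, 8 and 22 and WT MTAL replicates 11, 13 and 17 (adjusted p up to 0.121). In the fit of the 11 pools lacking *Xist*, the log2 fold change was 1.19 for *Slc7a5* (adjusted p = 0.0135), -2.35 for *Slc1a1* (adjusted p = 0.00615), -1.19 for *Slc7a8* (adjusted p = 0.0133) and -1.98 for *Slc1a3* (adjusted p = 0.0207), whereas *Slc6a8* was at -0.12 (adjusted p = 0.913), *Slc43a2* at -0.36 (adjusted p = 0.396) and *Slc1a5* at -0.68 (adjusted p = 0.0674). Cell markers moved with segment. Of 10 TAL markers 5 were lower and 1 higher in WT MTAL, with sums of 52265 to 63897 CPM against 86289 to 98056 CPM in WT CTAL, and 1 of 2 tested thin limb markers was higher. Of 7 tested immune markers 4 were lower and 1 higher, with sums of 134 to 200 CPM in WT MTAL and 193 to 247 CPM in WT CTAL. Of 6 tested principal cell markers, 6 tested intercalated cell markers and 3 tested injury markers, 1 each was lower in WT MTAL. The part of these cells in the differences between segments was not tested.

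**Figure D3:**
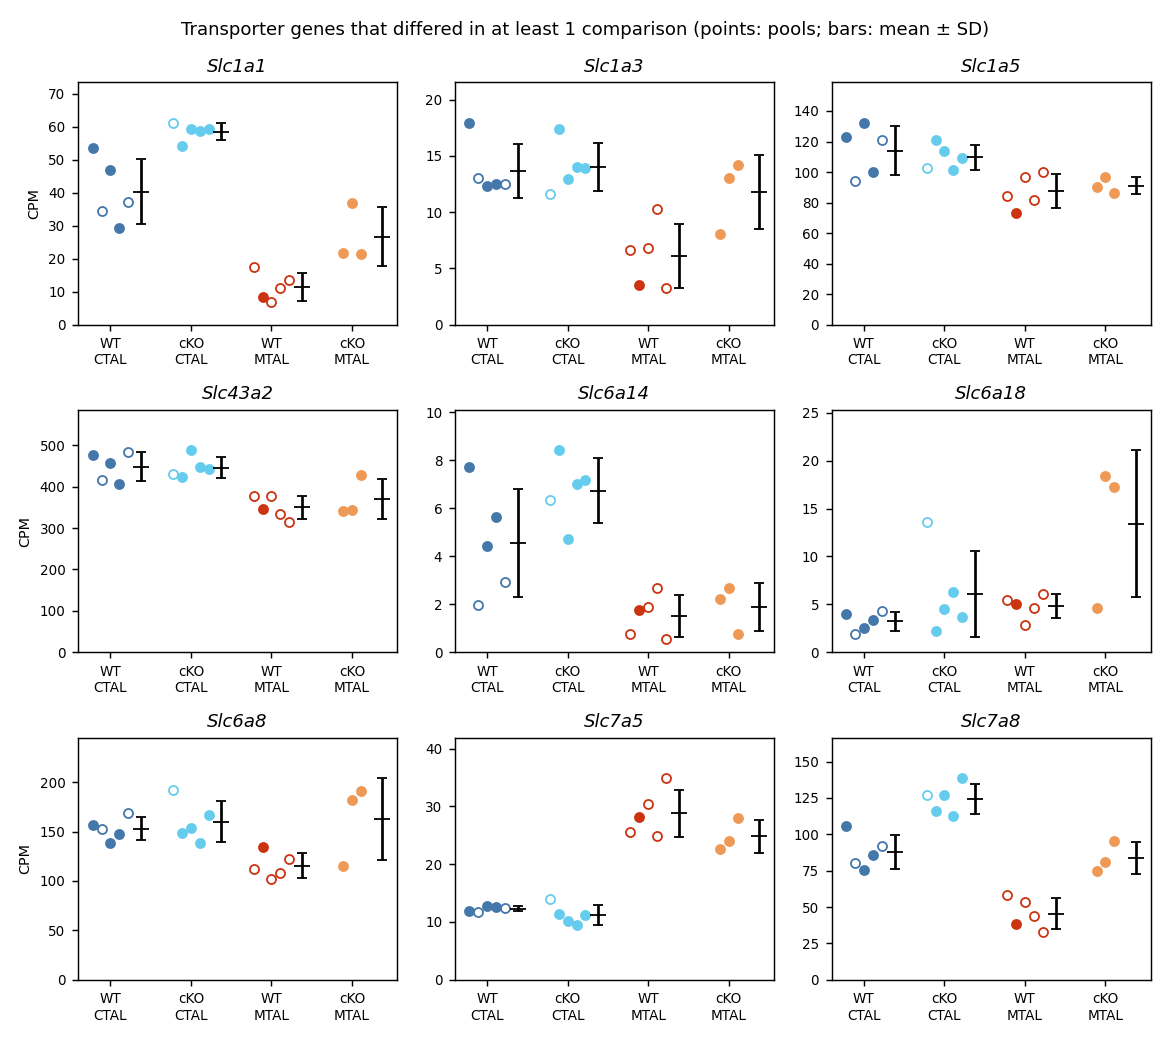
Level (CPM) of the 9 members that differed in at least 1 comparison, in each pool of the 4 groups; bars show the mean and SD (n = 5, 5, 5 and 3), and open points are the 7 pools that hold *Xist*. *Slc7a5* was higher in both MTAL groups, *Slc1a1* and *Slc7a8* were highest in cKO CTAL and lowest in WT MTAL, and the 2 high cKO MTAL points of *Slc6a18* are replicates 18 and 20.

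Within cKO mice the segments differed in *Slc7a5*, *Slc1a1*, *Slc7a8* and *Slc6a14*. These were 4 of 27 members (1 higher and 3 lower in cKO MTAL), where 1.75% of 12044 genes differed (1.12% higher and 0.631% lower). The fold change reached 2 for *Slc7a5*, *Slc1a1* and *Slc6a14*, against 0.938% of all genes, and the median log2 fold change was 0.03 over the members and over all genes. *Slc7a5* had 9.44, 10.1, 11.2, 11.3 and 13.9 CPM in cKO CTAL and 22.6, 23.9 and 28 CPM in cKO MTAL, without overlap (log2 fold change 1.19, SE 0.18, adjusted p = 0.00516). *Slc1a1* fell by 1.10 (SE 0.17, adjusted p = 0.00715) and *Slc7a8* by 0.53 (SE 0.12, adjusted p = 0.0416), and all 4 called members and *Slc1a5* had groups that did not overlap, against 10.1% of all genes. *Slc7a5* and *Slc1a1* passed the test whichever pool was left out, whereas the call of *Slc7a8* was lost without cKO MTAL replicate 16 or any 1 of the 5 cKO CTAL pools (adjusted p up to 0.105), which left 2 calls in each case. In the 11 pools lacking *Xist* the log2 fold change was 1.28 for *Slc7a5* (adjusted p = 0.000838), -1.08 for *Slc1a1* (adjusted p = 0.0169), -0.52 for *Slc7a8* (adjusted p = 0.0496) and -1.83 for *Slc6a14* (adjusted p = 0.0301). In cKO MTAL 3 of 4 thin limb markers were higher (sums of 82.9 to 120 CPM against 18.8 to 46.1 CPM in cKO CTAL). Lower in cKO MTAL were 3 of 10 TAL markers (69256 to 81697 CPM against 84439 to 100790 CPM) and 1 of 8 immune markers. The part of these cells was not tested.

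*Slc6a14* encodes a carrier of neutral and cationic amino acids driven by sodium and chloride. It was low throughout, with 4.72, 6.33, 7.01, 7.17 and 8.42 CPM in cKO CTAL and 0.770, 2.21 and 2.67 CPM in cKO MTAL. The groups were apart, with a log2 fold change of -1.81 (SE 0.41, adjusted p = 0.0472), but the call was lost when any 1 pool other than cKO MTAL replicate 18 was left out (adjusted p up to 0.124). In WT pools, where it was too low to be tested between segments, *Slc6a14* had 1.98 to 7.70 CPM in WT CTAL and 0.551 to 2.67 CPM in WT MTAL.

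The 4 comparisons share pools, so that their values are given side by side and are not independent of each other. For *Slc1a1* the log2 difference between segments was -1.83 in WT mice and -1.10 in cKO mice, and for *Slc7a8* it was -0.95 and -0.53, while for *Slc7a5* it was 1.22 and 1.19. The order of mean levels was the same for *Slc1a1* and *Slc7a8*. *Slc1a1* had 58.5 ± 2.67 CPM (SD, n = 5) in cKO CTAL, 40.3 ± 9.83 (n = 5) in WT CTAL, 26.7 ± 8.83 (n = 3) in cKO MTAL and 11.4 ± 4.18 (n = 5) in WT MTAL. *Slc7a8* had 124 ± 10.3, 87.8 ± 11.9, 83.7 ± 10.8 and 45.5 ± 10.4 CPM in the same groups. The ranges of WT CTAL and cKO MTAL, neighbours in that order, overlapped for both genes.

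**Figure D4:**
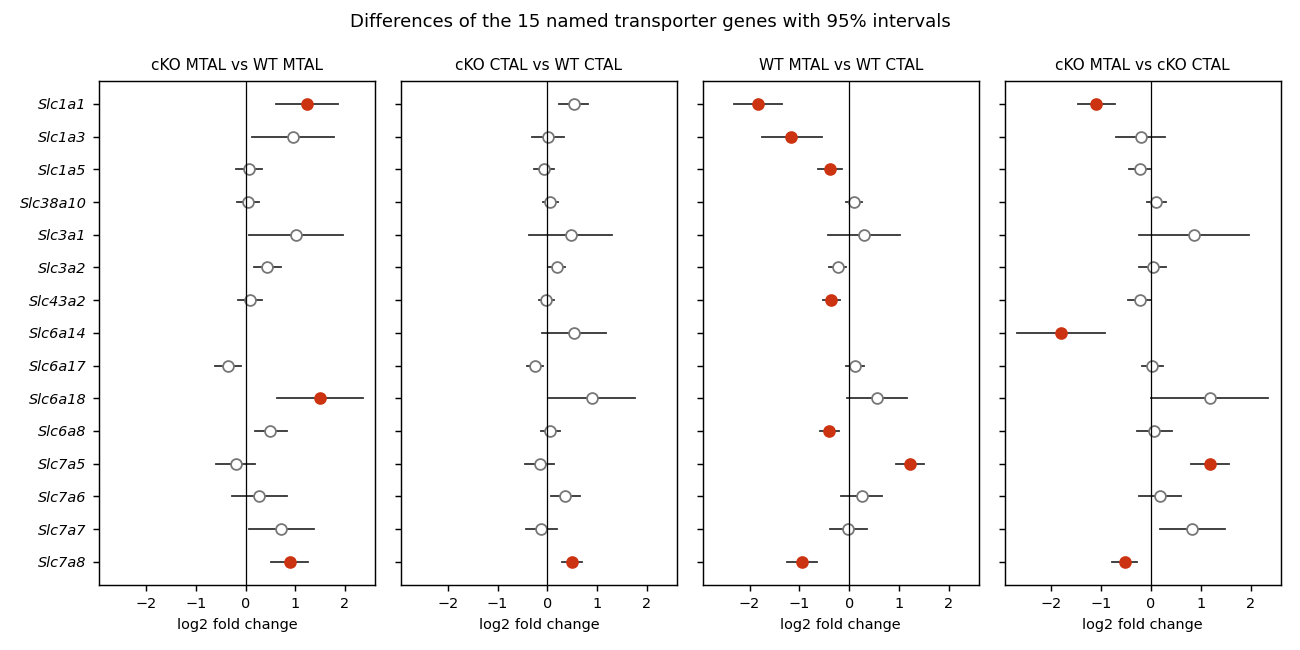
Log2 fold change (point) and 95% interval (line) of the 15 members described by name in the 4 comparisons of groups, on 1 shared axis; filled points passed the test at an adjusted p under 0.05, and a member without a point was not tested there. *Slc7a8* is filled in all 4 panels and *Slc1a1* in 3 of them.

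Whether the genotype effect differed between segments was tested as an interaction. No member of 28 passed that test with edgeR's quasi-likelihood method, where 0.286% of 12586 genes did (0.262% with a higher and 0.0238% with a lower effect in the MTAL). At an unadjusted p under 0.05 there were 4 members, against 14.7% of all genes, and DESeq2 and limma also called 0. The difference of the effects was 0.70 for *Slc1a1* (95% interval 0.05 to 1.35, adjusted p = 0.30), 0.38 for *Slc7a8* (-0.03 to 0.79, adjusted p = 0.376) and 0.43 for *Slc6a8* (0.06 to 0.80, adjusted p = 0.27). A larger effect in the MTAL than in the CTAL was therefore not detectable with these pools for *Slc1a1*, *Slc7a8* or *Slc6a8*.

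*Slc7a8* and *Slc7a5* share the heavy chain *Slc3a2*, and their ratio, examined after their values were seen and not tested, separated the MTAL groups. Within a pool, *Slc7a8* over *Slc7a5* in TPM ranged from 4.94 to 7.63 in WT CTAL, from 6.04 to 10.9 in cKO CTAL, from 0.806 to 1.98 in WT MTAL and from 2.89 to 3.01 in cKO MTAL. The 3 cKO MTAL pools lay above all WT MTAL pools and below all CTAL pools of both genotypes, while WT CTAL and cKO CTAL overlapped. In the same pools *Slc3a2* itself ranged from 45.6 to 58.0 TPM in WT MTAL and from 63.0 to 95.5 TPM in cKO MTAL, above the sum of both light chains in each pool.

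**Figure D5:**
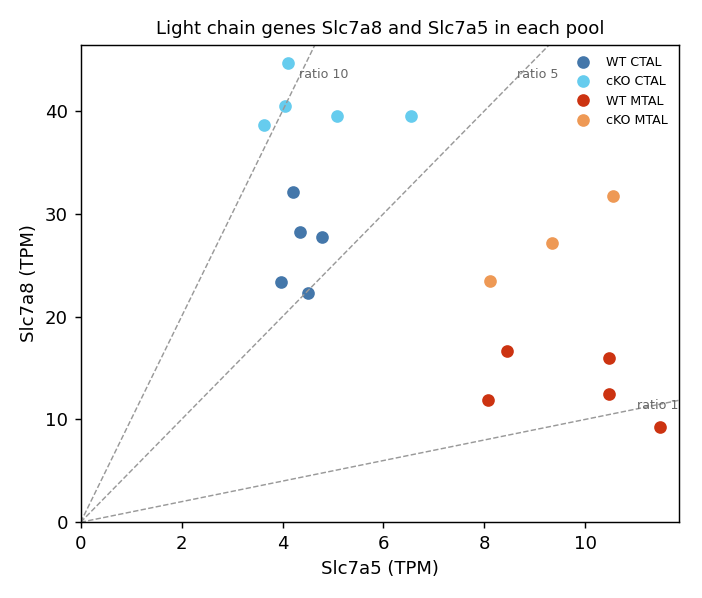
TPM of *Slc7a8* against TPM of *Slc7a5* in each of the 18 pools, coloured by group; dashed lines mark ratios of 1, 5 and 10. The MTAL pools lie to the right, with more *Slc7a5*, and within each segment the cKO pools lie above the WT pools, with more *Slc7a8*.

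By role, the summed TPM of the 7 Slc1 members was 103 ± 9.51 in cKO CTAL (SD, n = 5), 90.0 ± 13 in WT CTAL (n = 5), 81.7 ± 11.7 in cKO MTAL (n = 3) and 58.7 ± 5.57 in WT MTAL (n = 5). The 10 light chains summed to 68.7 ± 4.0, 52.9 ± 6.93, 71.6 ± 2.42 and 46.5 ± 7.30 TPM in the same groups, and the 5 cationic carriers of Slc7 to 9.90 ± 1.51, 7.73 ± 1.76, 11 ± 1.98 and 7.38 ± 1.61 TPM. *Slc1a5* was the most abundant member of the first and *Slc7a8* of the second; without them the Slc1 sum was 28.2, 19.3, 15.4 and 7.40 TPM and the light chain sum 28.2, 26.2, 44.1 and 33.2 TPM on average. The 10 Slc38 members summed to 168, 152, 178 and 150 TPM on average, of which *Slc38a10* made the largest part, and none of the 6 tested Slc38 members passed a test. Neither did the proton-coupled *Slc36a1*, which exports amino acids from lysosomes, and *Slc36a4*, the cationic carriers *Slc7a1* and *Slc7a4*, or the light chains *Slc7a6* and *Slc7a7*. The 12 sodium-coupled amino acid carriers of Slc6 summed to 48.5, 56.4, 49.7 and 51.5 TPM on average, the only role lower in cKO pools of both segments. The sums are without TMM factors and were not tested. From WT to cKO MTAL, *Slc1a5* went from 51.3 to 66.3 TPM but from 87.3 to 91.1 CPM. *Slc38a10* went from 126 to 151 TPM but from 353 to 364 CPM.

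Enzymes that use the same amino acids were read from lists. Of 16 tested genes of glutamine and glutamate metabolism, 3 were higher and 0 lower in cKO MTAL than in WT MTAL, where 4.44% of all genes were higher and 2.57% lower. Their median log2 fold change was 0.29, against 0.00 over all genes. In WT MTAL against WT CTAL 0 were higher and 4 lower, where 2.76% of all genes were higher and 4.10% lower. The median was then -0.17, against 0.02 over all genes. *Ggt1*, which splits extracellular glutathione into amino acids, had 61.1, 86.5, 89.2, 103 and 122 CPM in WT MTAL and 227, 296 and 401 CPM in cKO MTAL (log2 fold change 1.75, SE 0.19, adjusted p = 5.66e-05). *Glul*, glutamine synthetase, had 17.4 to 25.3 CPM in WT MTAL and 49.8, 66.5 and 99.0 CPM in cKO MTAL (1.72, SE 0.20, adjusted p = 8.08e-05). All cKO MTAL pools lay above all WT MTAL pools in *Ggt1* and *Glul*. In WT mice *Ggt1* (-1.97, adjusted p = 9.32e-07) and *Glul* (-0.71, adjusted p = 0.00157) were lower in MTAL than in CTAL, and the interaction passed the test for *Ggt1* (1.30, adjusted p = 0.016) and *Glul* (1.16, adjusted p = 0.0418). None of the 16 passed the test between cKO and WT CTAL or between the cKO segments. *Ggt1* is also a gene of the proximal tubule, whose markers are given above. In both *Ggt1* and *Glul*, replicate 16 was the lowest cKO MTAL pool, and cKO CTAL replicate 2 was the highest CTAL pool (577 and 73.0 CPM). Replicate 2 was also the CTAL pool with the most proximal tubule markers. The part of proximal tubule RNA in the differences of *Ggt1* and *Glul* was not tested.

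The amino acid response, by which cells short of amino acids raise transporters and synthetic enzymes, was read from 26 tested genes, of which 1 was higher and 2 were lower in cKO MTAL than in WT MTAL. Over all genes 4.44% were higher and 2.57% lower, and the median log2 fold change of the list was 0.06. *Cebpb*, a transcription factor of this response and of inflammation, rose by 1.36 (SE 0.28, adjusted p = 0.00926), whereas *Chac1*, which degrades glutathione, fell by 1.98 (SE 0.44, adjusted p = 0.0138) and *Vldlr*, a lipoprotein receptor, fell by 0.56 (SE 0.12, adjusted p = 0.0126). Compared to WT CTAL, WT MTAL expressed more *Nupr1*, a stress-induced nuclear protein (2.05, adjusted p = 4.38e-05), *Chac1* (1.92, adjusted p = 0.00198) and *Psat1*, of serine synthesis (1.15, adjusted p = 0.046), and no gene of the 26 was lower. Between WT segments 2.76% of all genes were higher and 4.10% lower. In cKO MTAL against cKO CTAL, *Nupr1* (2.19, adjusted p = 0.00338) and *Atf3* (1.71, adjusted p = 0.0047) were higher among 25 tested, where 1.12% of all genes were higher and 0.631% lower. None of 23 differed between cKO and WT CTAL.

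Among 35 tested genes by which mTORC1 senses amino acids, 1 was higher and 1 lower in cKO MTAL than in WT MTAL, no more than the 4.44% and near the 2.57% of all genes, so that the 2 genes are given for themselves and not for the list. *Rragd*, a GTPase that recruits mTORC1 to the lysosome, had 65.0 to 82.8 CPM in WT MTAL and 113, 114 and 131 CPM in cKO MTAL (log2 fold change 0.67, SE 0.13, adjusted p = 0.00446), and *Fnip2*, a partner of folliculin, fell by 1.33 (SE 0.23, adjusted p = 0.00257). From CTAL to MTAL *Rragd* fell by 0.99 in WT mice (adjusted p = 3.93e-05) and fell by 0.60 in cKO mice (adjusted p = 0.0133), and was the only gene of this list called in either comparison of segments. None of the 35 differed between cKO and WT CTAL.

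Of amino acid and peptide carriers of other families and their partners, 9 genes were tested between WT segments. In WT MTAL 1 was higher and 1 lower, where 2.76% of all genes were higher and 4.10% lower. WT MTAL expressed more *Cltrn*, the partner of neutral amino acid carriers of the Slc6 family in the kidney, than WT CTAL (log2 fold change 1.10, SE 0.17, adjusted p = 0.000492). In cKO MTAL against WT MTAL, 1 of 9 tested genes of this list was higher and 0 were lower, against 4.44% and 2.57% of all genes. None of 8 tested genes of this list differed between cKO and WT CTAL or between the cKO segments.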

How the data were processed

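Poly-A RNA of 18 pools was sequenced with paired-end reads from a strand-specific kit. The authors trimmed reads (fastp in the methods, Trimmomatic in the submitters' notes), mapped them to mm10 with DRAGEN and quantified genes with a GENCODE annotation; whether counting used strand was not given in the sources used here. As deposited, the estimated counts carry no normalization and hold decimals; they were rounded for tests, where whole counts had been assumed. The TPM values deposited by the authors are corrected for length and scaled per pool.

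Members and lists were chosen with earlier results of these data known. The members named are those past the test in any comparison, the 10 with the highest mean TPM, and both heavy chains; pathway genes are those with the smallest adjusted p. Groups came from the labels. Genes reaching 3 CPM in 5 or more pools (3 or more where cKO MTAL enters, and for the interaction) entered edgeR's quasi-likelihood test (edgeR 4.0.16 under R 4.3.3, TMM factors), fitted on the pools compared or, for the interaction, on all 18, and p-values were adjusted by Benjamini-Hochberg over all genes tested. A gene was called at an adjusted p under 0.05. SE is the log2 fold change over the root of F, and intervals use its degrees of freedom. Alternatives used DESeq2 1.42.0, limma 3.58.1 on log2(TPM + 1), other scalings, no filter, other sets of pools and single pools left out; the fits without *Xist* pools and without the 3 pools with the most proximal tubule markers were chosen after seeing the data. The test was checked on simulated counts. Positions of all 60 members were taken from GENCODE M21 (GRCm38, the build also called mm10); 25 overlap another annotated gene, among them *Slc3a1* (*Prepl*), *Slc7a7* (*Oxa1l*) and *Slc1a1* (*Gm5822*), all on the opposite strand, whose reads in the overlap cannot be told apart without strand. The 3 pools that the study excluded were not analysed here. Some genes of the pathway lists are counted with their list and are not reported here by name.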

Additional observations from a re-analysis of the deposited data

Results flagged for a closer look

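Among 72 groups of pools examined (single members in CPM, roles in summed TPM), 4 had a pool far from the others of its group, where chance gives about 1 in 20. *Slc1a3* in WT CTAL stood at 17.9 CPM in replicate 1, against 12.4 to 13 CPM in the other 4 pools. The summed TPM of the sodium-coupled amino acid carriers of Slc6 was 87.9 in WT CTAL replicate 22, against 44.3 to 53.4 in the others, and *Slc6a17* made 70.7 TPM of it while its CPM in that pool was 192, against 164 to 186 in the others. In WT MTAL, replicate 13 had 63.9 summed TPM of the same Slc6 carriers, against 47.2 to 50.5, and 174 summed TPM of the Slc38 carriers, against 142 to 149. Replicate 13 is the WT MTAL pool that lacks *Xist*.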

How the results depend on the processing

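Of 15 pairs of a member and a comparison that passed the test, 4 passed under every alternative (*Slc1a1*, *Slc7a8* and *Slc7a5* between WT segments, *Slc1a1* between cKO segments), 11 lost the call under at least 1, and 10 other pairs of the 15 members described by name gained one; members not described by name were not counted. *Slc6a18* in cKO MTAL against WT MTAL was at -0.03, no difference, without the 3 pools with the most proximal tubule markers, which are also those where it was high.

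For cKO MTAL against WT MTAL, the number of members past the test moved from 3 to 5 with DESeq2, with total counts, with no filter and in the 11 pools lacking *Xist*, to 8 in one fit of all 18 pools, to 7 with an *Xist* term in it, to 1 with limma and to 1 without the 3 pools with the most proximal tubule markers (*Slc7a7*), and ranged from 1 to 6 when single pools were left out. For cKO CTAL against WT CTAL it moved from 1 to 3 with DESeq2, to 2 with total counts, to 2 with WT CTAL replicate 1 counted as cKO, and to 0 in the fit of 18 pools, with the *Xist* term and in the 11 pools lacking *Xist*, and ranged from 0 to 2. Between WT segments it moved from 7 to 4 with limma and to 4 in the 11 pools, and ranged from 5 to 8; between cKO segments it moved from 4 to 1 with limma and ranged from 2 to 5. The interaction count was 0 except without the 3 pools with the most proximal tubule markers, where it was 1 (*Slc7a7*). Over all genes, the number past the test for cKO MTAL against WT MTAL moved from 845 to 1359 with DESeq2, 1399 with no filter, 317 with limma, 2136 in the fit of 18 pools, 433 without the pools with the most proximal tubule markers and 158 in the 11 pools; for cKO CTAL against WT CTAL from 143 to 360 with DESeq2 and 4 in the 11 pools; between WT segments from 800 to 452 with limma and 219 in the 11 pools; and between cKO segments from 211 to 822 with DESeq2 and 68 with limma. The causes of these moves were not tested beyond the number of pools or genes that enter each fit. No paired analysis was made, as the groups share no replicate numbers. Whether pools with neighbouring numbers came from littermates was not examined. The filter left members under about 3 CPM out of the main tests. Without it, 58 members instead of 26 entered the fit of cKO MTAL against WT MTAL.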

Other observations

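*Slc38a6*, a sodium-coupled neutral carrier, had 21.9 TPM in WT CTAL replicate 3 and 2.58 to 4.20 TPM in the other WT CTAL pools, while its CPM in replicate 3 was 9.13 against 5.41 to 7.86 in the others. It was singled out after its values were seen.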
